A study of Mus musculus with 24 samples.

Results

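Messenger RNA levels of the genes that make, transport and break down acetylcholine, and of the muscarinic and nicotinic receptors that respond to it, were examined in mouse nucleus accumbens. The set was chosen by gene symbol, and it holds 10 genes out of 37991 gene identifiers in the deposited count table. A row was found through its Ensembl identifier for 8 of them: Chat, Slc5a7, Ache, Chrm1, Chrm2, Chrm4, Chrna4 and Chrnb2. Slc18a3, the vesicular acetylcholine transporter, and Lhx8, a transcription factor of cholinergic neurons, had no matched row, so their levels were not analysed here. All 8 matched genes passed the filter on low counts in both experiments.

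The series holds 24 libraries in 8 groups of 3, and each library was made from mRNA pooled from 4 mice. Every mouse had the C57BL/6J background. The first experiment compared stressed with control wild-type females and stressed with control wild-type males. The second compared AAV-CRE with AAV-GFP in Dnmt3a2lox/2lox females and in Dnmt3a2lox/2lox males, and all mice of that experiment, the AAV-GFP ones included, were stressed. AAV is an adeno-associated virus used to carry a gene into brain cells, and Cre is a recombinase that cuts out DNA lying between lox sites. Dnmt3a encodes an enzyme that methylates cytosines, mostly where a guanine follows. The series title names subchronic variable stress, and the tissue is labelled nucleus accumbens, although the protocol text also names dorsal striatum punches. The sources used here do not give the promoter that drove Cre, the cells that took up the virus, the age of the mice or the length of the stress.

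Acetylcholine in the accumbens comes mainly from a sparse population of large local interneurons. Choline acetyltransferase (Chat) makes the transmitter, the high-affinity choline transporter (Slc5a7) brings choline back into the terminal, and acetylcholinesterase (Ache) breaks the transmitter down. The receptors lie largely on other cells: Chrm1 is found on both classes of medium spiny neurons, Chrm4 is richest on those of the direct pathway, Chrm2 acts as an autoreceptor on cholinergic neurons, and Chrna4 and Chrnb2 together form the common high-affinity nicotinic receptor, carried by dopamine terminals and by many cortical and thalamic neurons. Because the tissue was sequenced in bulk, fewer cells of a type and less RNA per cell cannot be told apart.

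The windows around the annotated start of 3 genes are shown because the results turn on them: Chrna4 was the 1 member that passed the test after Cre, and Chat and Slc5a7, which mark the same neurons, are set against each other library by library. Each window runs from 250 bases before to 50 bases after the RefSeq start in build GRCm38.p6, written 5′ to 3′ on the gene's strand, with every CG in capitals. Chrna4 lies on the minus strand at chr2:181039128-181039427, Chat on the minus strand at chr14:32465860-32466159, and Slc5a7 on the minus strand at chr17:54298985-54299284.
Chrna4: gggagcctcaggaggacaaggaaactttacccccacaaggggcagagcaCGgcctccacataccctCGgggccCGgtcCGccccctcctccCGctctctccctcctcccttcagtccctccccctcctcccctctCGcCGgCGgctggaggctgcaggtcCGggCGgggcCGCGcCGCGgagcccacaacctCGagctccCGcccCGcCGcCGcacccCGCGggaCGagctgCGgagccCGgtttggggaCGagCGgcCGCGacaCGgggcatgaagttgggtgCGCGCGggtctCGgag
Chat: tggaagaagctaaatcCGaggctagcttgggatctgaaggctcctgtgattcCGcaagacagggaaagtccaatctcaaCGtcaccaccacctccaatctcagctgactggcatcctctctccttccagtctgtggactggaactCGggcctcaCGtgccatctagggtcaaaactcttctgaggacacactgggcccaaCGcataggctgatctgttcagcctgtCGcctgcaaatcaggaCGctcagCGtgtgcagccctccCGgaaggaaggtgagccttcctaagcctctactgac
Slc5a7: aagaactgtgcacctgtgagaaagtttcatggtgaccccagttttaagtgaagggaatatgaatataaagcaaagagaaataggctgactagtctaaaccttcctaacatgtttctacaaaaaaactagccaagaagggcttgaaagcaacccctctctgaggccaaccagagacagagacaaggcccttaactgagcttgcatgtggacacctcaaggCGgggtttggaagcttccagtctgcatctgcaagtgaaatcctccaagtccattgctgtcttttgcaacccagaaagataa
The Chrna4 window held 33 CG dinucleotides, the Chat window 10 and the Slc5a7 window 1. Of 32851 windows of 300 bases, 94.6% held at least 1 CG, the median was 7, and 8.56% held as many as Chrna4 or more. Among the other 6 members with a window, the count was 30 in Ache and Chrm4, 27 in Slc18a3, 16 in Chrm2, 12 in Chrnb2 and 4 in Lhx8, and Chrm1 was not in the table of windows. The cyclic AMP response motif TGACGTCA, which reads the same on both strands, stood in 1.79% of all windows and in none of these 9. DNA methylation was not measured in this series, so the windows describe the sequence and nothing about its state.

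A Dnmt3a2lox/2lox library held between 28132563 and 59829070 counts in all, and a wild-type library between 7116123 and 12145551. The experiments also differ in genotype and virus, and no fold change was taken between them. Markers of medium spiny neurons were high in every library, with the 12 listed genes summing to between 5199 and 12543 CPM (counts scaled to the library's size). The 6 measured markers of cholinergic neurons, among them Chat, Slc5a7, Isl1, Gbx2 and Slc10a4, had counts in all 24 libraries. Dnmt3a itself stood at 143, 137 and 138 CPM in AAV-CRE males against 182, 164 and 171 CPM in AAV-GFP males (log2 difference -0.30, adjusted p = 0.0149), and at 155, 150 and 140 CPM in AAV-CRE females against 162, 169 and 155 CPM in AAV-GFP females (log2 difference -0.12, adjusted p = 0.829). The count covers the whole gene, and reads from outside the deleted part enter it, so it is only a partial check of the deletion. The call in males was lost without AAV-GFP male library 1 (adjusted p = 0.0579) and without library 3 (adjusted p = 0.0583). Of 10 markers of cortical excitatory neurons, 9 were called higher in AAV-CRE males, and their summed level was 590, 594 and 265 CPM there against 44.5, 49.2 and 59.8 CPM in AAV-GFP males. AAV-CRE male library 2 also stood apart from the other floxed libraries, with a summed level of the medium spiny neuron markers of 5199 CPM against 8964 to 11520 CPM, and with 2096 CPM of choroid plexus markers.

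**Figure D1:**
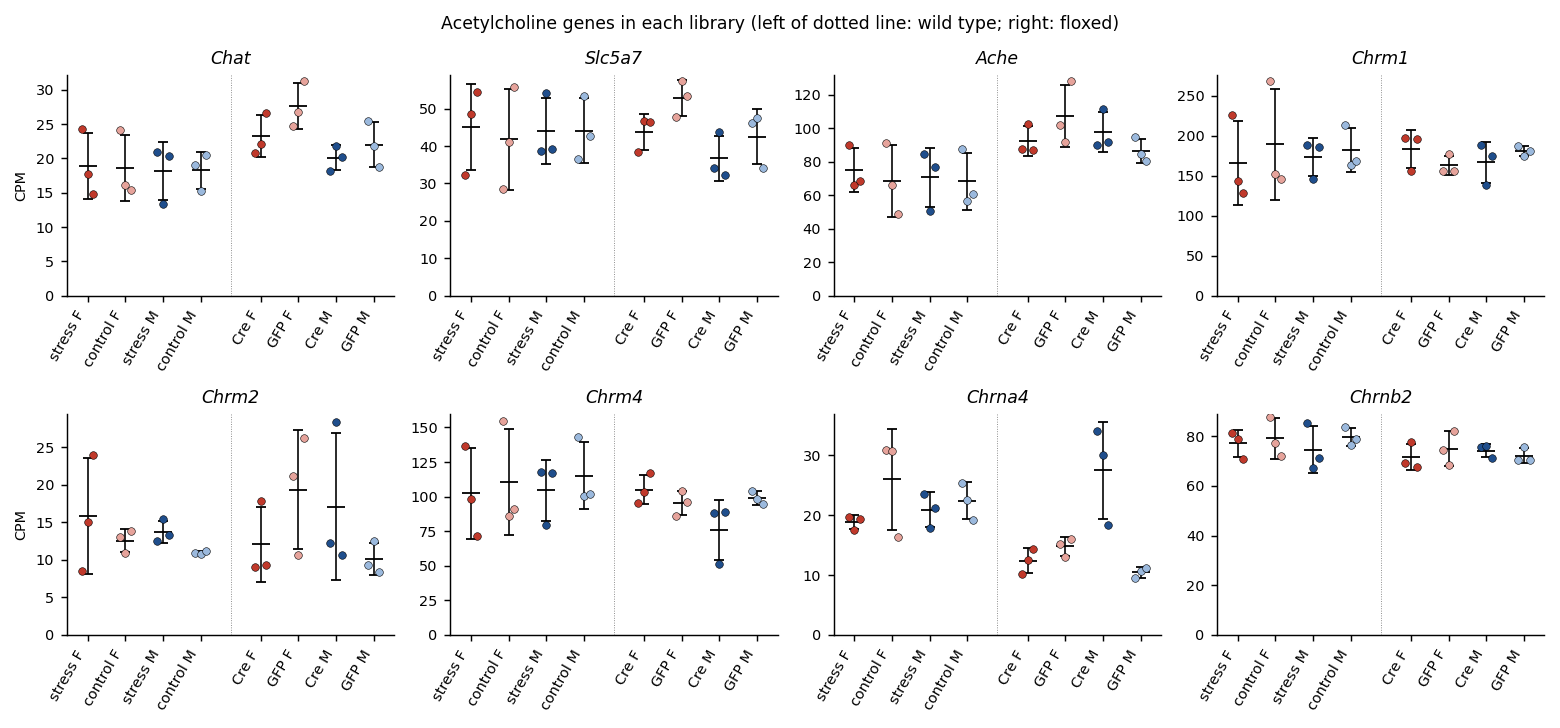
Level of each measured acetylcholine gene in every library (y axis, CPM; each axis starts at 0), with 1 point per library and bars for the mean and SD of 3 libraries; groups left of the dotted line are wild type and those right of it Dnmt3a2lox/2lox. Chrna4 in the 3 AAV-CRE male libraries sits between 18.4 and 34.1 CPM, all above the AAV-GFP male libraries, and the points of the other genes mostly overlap between paired groups.

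Per length of annotated exon, the receptors of medium spiny neurons were the most abundant members. Chrm1 averaged 26.7 ± 2.83 RPKM (CPM divided by exon length) in the Dnmt3a2lox/2lox libraries and 27.3 ± 6.34 RPKM in the wild-type libraries (SD over 12 libraries each, here and below). Chrm4 averaged 65.2 ± 11.1 RPKM in Dnmt3a2lox/2lox and 75.1 ± 18.2 RPKM in wild-type libraries, above Chrm1 in every library, but the annotation used for lengths gives it 1440 bases of exon, about its coding part, which raises its value per length. Ache averaged 20.7 ± 2.88 RPKM in Dnmt3a2lox/2lox libraries, where its range overlapped that of Chrm1, and 15.3 ± 3.30 RPKM in wild-type libraries, where it did not. Chrnb2 averaged 8.74 ± 0.520 RPKM in Dnmt3a2lox/2lox and 9.26 ± 0.755 RPKM in wild-type libraries, below every Ache value of the same experiment. Slc5a7 averaged 7.79 ± 1.39 RPKM in Dnmt3a2lox/2lox and 7.75 ± 1.65 RPKM in wild-type libraries, and its range overlapped that of Chrnb2 in both. The 3 lowest were Chat, at 4.94 ± 0.817 RPKM in Dnmt3a2lox/2lox and 3.93 ± 0.771 RPKM in wild-type libraries, Chrna4, at 3.25 ± 1.57 RPKM in Dnmt3a2lox/2lox and 4.39 ± 0.967 RPKM in wild-type libraries, and Chrm2, at 2.42 ± 1.16 RPKM in Dnmt3a2lox/2lox and 2.20 ± 0.642 RPKM in wild-type libraries. Chat and Chrna4 overlapped in both experiments and changed places between them, and Chrna4 overlapped Chrm2 in both. Chrnb2 shares 1365 exonic bases with Adar on the opposite strand, and Chrm1, Chrm2 and Ache share 329, 142 and 98 exonic bases with non-coding genes on the opposite strand. Whether reads were counted by strand is not given in the sources used here, so part of the count of these 4 genes may come from the neighbour.

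The genes of the cholinergic neurons themselves did not differ detectably between stressed and control mice. In females, Chat stood at 24.2, 17.7 and 14.7 CPM in stressed libraries against 24.1, 16.2 and 15.4 CPM in controls. The ranges of the 2 groups nearly coincided, and the log2 fold change was 0.02 (95% CI -0.49 to 0.54). In males, Chat stood at 20.9, 13.3 and 20.4 CPM in stressed libraries against 19.0, 15.3 and 20.5 CPM in controls, a log2 fold change of -0.01 (95% CI -0.52 to 0.51). Slc5a7 stood at 32.2, 48.4 and 54.5 CPM in stressed females against 28.6, 41.2 and 55.7 CPM in control females, and at 38.5, 54.3 and 39.2 CPM in stressed males against 36.4, 53.4 and 42.6 CPM in control males. Its libraries spread widely inside each group, and the log2 fold change was 0.11 (95% CI -0.44 to 0.66) in females and 0.00 (95% CI -0.55 to 0.54) in males. The stress intervals come from a fit that did not pair libraries by number, although same-numbered stressed and control females deviated together. Spread shared by same-numbered libraries is therefore part of these intervals. With the replicate block, which adds a term for each replicate number within each sex, no member was called after stress either. Ache, the enzyme that ends the signal, averaged 75.0 ± 13.2 CPM in stressed against 68.5 ± 21.3 CPM in control females and 70.6 ± 17.7 CPM in stressed against 68.2 ± 17.1 CPM in control males (SD, n = 3 libraries each).

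Among the receptors after stress, Chrna4 in females and Chrm2 in both sexes moved most, and neither passed the test. Chrna4 stood at 19.8, 17.6 and 19.3 CPM in stressed females against 30.9, 30.8 and 16.3 CPM in control females. The third control library lay below all stressed ones, and the log2 fold change of -0.46 had a 95% CI of -0.94 to 0.01. Markers of cortical neurons were also lower on average: the 10 genes summed to 82.1, 108 and 117 CPM in stressed females against 145, 214 and 114 CPM in control females. The control library with the lowest sum also had the lowest Chrna4, but the stressed library with the lowest sum had the highest Chrna4 of its group. The part of these markers in the result was not tested. In males Chrna4 stood at 23.6, 17.9 and 21.3 CPM in stressed libraries against 25.5, 22.6 and 19.2 CPM in controls. The cortical markers summed to 87.7, 111 and 90.8 CPM in stressed males against 116, 87.2 and 116 CPM in control males. The stressed male library with the highest sum had the lowest Chrna4. Chrm2 stood at 8.53, 15.1 and 23.9 CPM in stressed females against 13.1, 10.9 and 13.8 CPM in control females. Its log2 fold change was 0.33 (95% CI -0.25 to 0.91), and -0.08 without stressed female library 3. In males it stood at 12.6, 15.4 and 13.4 CPM in stressed libraries against 11.0, 10.9 and 11.2 CPM in controls, with a log2 fold change of 0.33 (95% CI -0.26 to 0.91). These male groups did not overlap, which was true of 7.91% of all genes tested in that comparison, and Chrm2 was the only 1 of the 8 members for which it held; in females 5.30% of genes and no member met it. Markers of basal forebrain, septal, pallidal and hypothalamic neurons moved with it: the 13 genes, of which 0 to 4 were at 0 in a library, summed to 57.5 to 61.0 CPM in stressed males against 43.8 to 51.6 CPM in control males, and to 46.7, 60.6 and 81.5 CPM in stressed females against 50.6, 50.5 and 39.7 CPM in control females. Of the 8 that were tested, 6 were higher in stressed males (median log2 fold change 0.26) and 7 in stressed females (median 0.47), and their part in the Chrm2 values was not tested. Chrm1, Chrm4 and Chrnb2 overlapped between stressed and control libraries in both sexes, with log2 fold changes between -0.19 and -0.04.

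No member was called after stress at an adjusted p below 0.05 (edgeR's quasi-likelihood test, Benjamini-Hochberg adjustment over all genes). The count was 0 of 8 in females, where 0% of all 15249 genes tested were called, and 0 of 8 in males, where 0.00656% were called. At an unadjusted p below 0.05 it was also 0 of 8 in each sex, against 1.68% of all genes in females and 2.81% in males, and DESeq2 called 0 of 8 as well. The average over the sexes, the difference of the stress effect between females and males, and females against males gave 0 of 8 calls too, with 0.0131%, 0% and 0.0393% of all genes called. No member was called by DESeq2 in these 3 comparisons, and none had an unadjusted p below 0.05, which 3.21%, 1.19% and 5.03% of all genes had. The members' median log2 fold change was -0.01 in females and -0.04 in males, beside -0.01 and 0.00 over all genes.

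**Figure D2:**
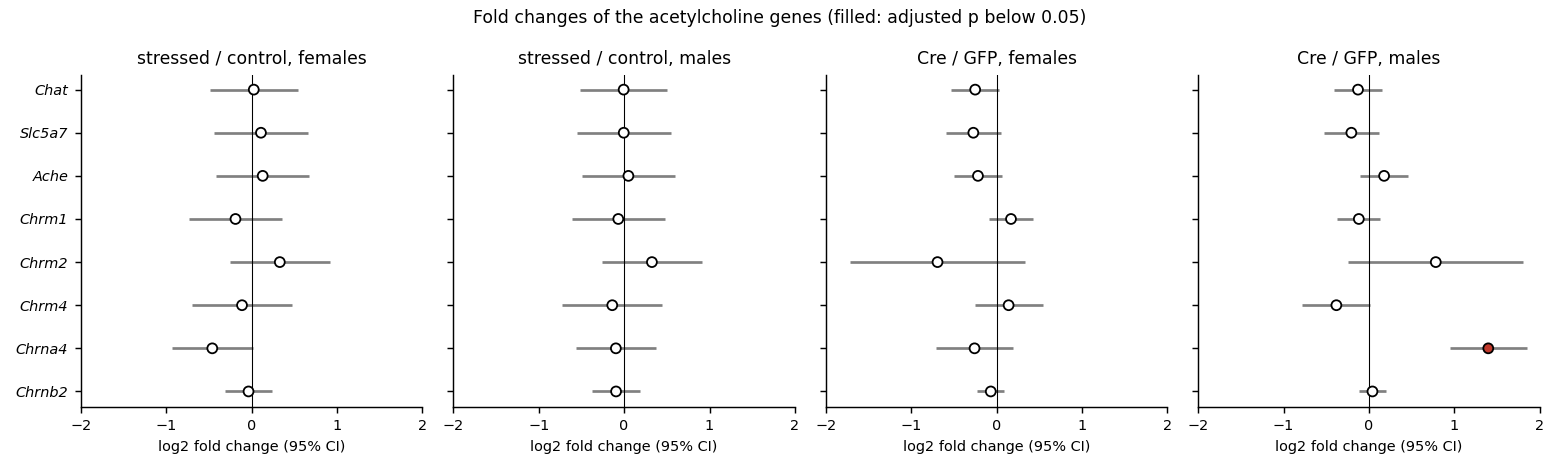
Log2 fold change (x axis) with its 95% confidence interval for each member (y axis) in 4 comparisons: stressed over control and Cre over GFP, each in females and in males; filled points passed an adjusted p of 0.05. The filled point is Chrna4 for Cre in males, at 1.40, and every other interval crosses 0.

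AAV-CRE was accompanied by a higher level of Chrna4, the alpha 4 nicotinic subunit, in males. It stood at 34.1, 30.1 and 18.4 CPM in AAV-CRE males against 9.45, 10.7 and 11.2 CPM in AAV-GFP males. All AAV-CRE libraries lay above all AAV-GFP ones, and the third was the lowest of the AAV-CRE libraries. The log2 fold change was 1.40 (SE 0.20, 95% CI 0.95 to 1.85, adjusted p = 0.00813). It was the only member called, 1 of 8, beside 4.96% of all 17597 genes tested called in either direction and 3.68% called higher. The call remained without each library of the experiment in turn, with log2 fold changes between 1.22 and 1.62 and adjusted p between 0.000141 and 0.0494. In females Chrna4 stood at 10.3, 12.5 and 14.4 CPM with AAV-CRE against 15.3, 13.1 and 16.1 CPM with AAV-GFP, and the groups overlapped (log2 fold change -0.26, 95% CI -0.71 to 0.19, adjusted p = 0.890). The difference between the female and the male effect was -1.65 (95% CI -2.29 to -1.02). Its adjusted p was 0.0736 by edgeR and 1.00e-05 by DESeq2. Without AAV-CRE male library 3, the lowest in Chrna4 of its group, edgeR gave an adjusted p of 0.00110. Of the fits that left out 1 library, only this one and that without AAV-GFP female library 2 called the difference. It was not called with the replicate block.

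The male libraries that were high in Chrna4 were also the ones that carried markers of cortical excitatory neurons. Slc17a7, which loads glutamate into the vesicles of cortical neurons, stood at 428, 408 and 168 CPM in AAV-CRE males against 1.29, 2.76 and 15.3 CPM in AAV-GFP males. In the same library order Chrna4 in AAV-CRE males was high, high and intermediate. None of the 10 cortical markers was at 0 in any library, and their summed level ran from 46.9 to 92.6 CPM in AAV-CRE females and from 47.4 to 72.4 CPM in AAV-GFP females. With the summed level of the markers as a covariate, the log2 fold change of Chrna4 in males was -0.42 with an adjusted p of 1.00, and 0 genes in all were called in that comparison; since the covariate and the virus nearly coincide in males, the 2 cannot be told apart in this fit. Chrnb2, the beta 2 subunit that assembles with Chrna4, stood at 75.5, 76.0 and 71.2 CPM in AAV-CRE males against 70.3, 75.6 and 70.6 CPM in AAV-GFP males. Its groups overlapped, and its log2 fold change was 0.04 (95% CI -0.12 to 0.20).

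**Figure D3:**
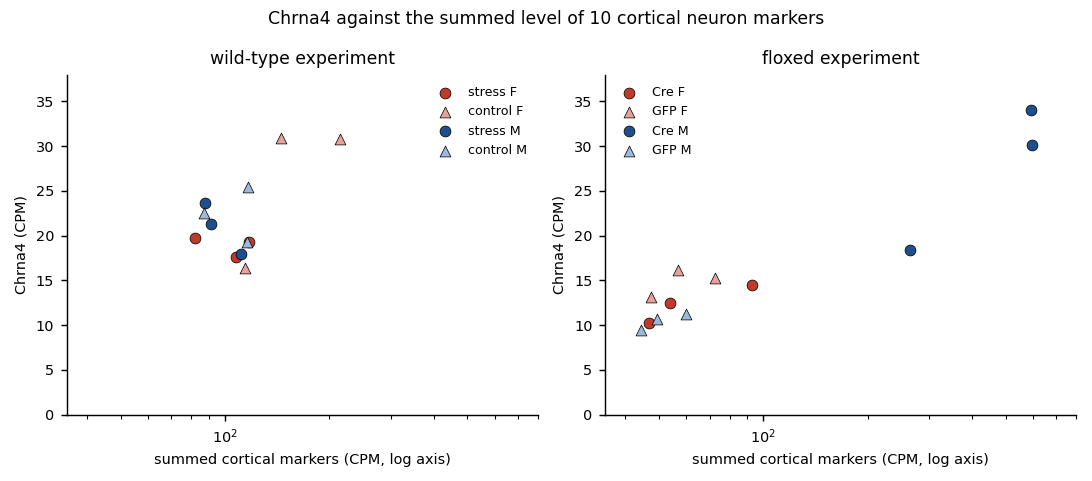
Chrna4 (y axis, CPM) against the summed level of 10 cortical excitatory neuron markers (x axis, CPM, log axis), with 1 point per library; circles are stressed or Cre libraries, triangles control or GFP libraries. The 3 AAV-CRE male libraries lie at 265 CPM of markers or more and 18.4 CPM of Chrna4 or more, apart from the other Dnmt3a2lox/2lox libraries.

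Chat and Slc5a7 were lower on average with AAV-CRE in both sexes, and neither passed the test. Chat stood at 20.8, 22.2 and 26.7 CPM in AAV-CRE females against 24.8, 26.8 and 31.3 CPM in AAV-GFP females. The highest AAV-CRE library reached the AAV-GFP range (log2 fold change -0.25, 95% CI -0.53 to 0.03, adjusted p = 0.852). In males Chat stood at 18.2, 21.8 and 20.2 CPM with AAV-CRE against 25.4, 21.8 and 18.8 CPM with AAV-GFP, with a log2 fold change of -0.13 (95% CI -0.41 to 0.16). Slc5a7 stood at 38.3, 46.8 and 46.4 CPM in AAV-CRE females against 47.9, 57.3 and 53.5 CPM in AAV-GFP females. These groups did not overlap, as was true of 11.5% of all genes tested and of 1 of the 8 members in that comparison (log2 fold change -0.27, 95% CI -0.59 to 0.05, adjusted p = 0.859). In males Slc5a7 stood at 34.1, 43.6 and 32.3 CPM with AAV-CRE against 46.1, 47.4 and 34.0 CPM with AAV-GFP (log2 fold change -0.21, 95% CI -0.53 to 0.12). Averaged over the sexes, the log2 fold change was -0.24 for Slc5a7 (unadjusted p = 0.0420, adjusted p = 0.330) and -0.19 for Chat (adjusted p = 0.376). Of the 6 measured markers of cholinergic neurons, 6 had a negative fold change in AAV-CRE females and 6 in AAV-CRE males. The medians were -0.25 and -0.15, beside 0.00 over all genes in each sex. Of these markers 0 were called in females and 1, Isl1, in males, by edgeR and by DESeq2 alike. Other lists moved too. In females 9 of 9 basal forebrain, septal, pallidal and hypothalamic markers (median -0.35) and 7 of 8 oligodendrocyte markers were negative. There 12 of 12 shared spiny neuron markers were positive (median 0.15). In males 12 of 12 shared spiny neuron markers were negative (median -0.32). There 10 of 10 cortical and 8 of 8 oligodendrocyte markers were positive. Ache stood at 87.6, 102 and 86.7 CPM in AAV-CRE females against 102, 91.7 and 128 CPM in AAV-GFP females, and at 89.7, 111 and 91.8 CPM in AAV-CRE males against 94.6, 84.5 and 80.3 CPM in AAV-GFP males. Its log2 fold change was -0.22 in females and 0.18 in males, and the difference between the sexes had an adjusted p of 0.286.

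Among the muscarinic receptors, Chrm4 was the 1 member besides Chrna4 whose groups did not overlap in AAV-CRE males, where 29.4% of all genes tested met that. It stood at 88.3, 51.2 and 89.0 CPM in AAV-CRE males against 104, 98.2 and 94.5 CPM in AAV-GFP males. The second AAV-CRE library, in which medium spiny neuron markers summed lowest, was far below the rest. The log2 fold change was -0.38 (adjusted p = 0.219), and -0.16 without that library. In females Chrm4 stood at 95.6, 103 and 117 CPM with AAV-CRE against 86.1, 104 and 96.1 CPM with AAV-GFP. Chrm1, which couples to excitatory G proteins on spiny neurons, stood at 197, 156 and 196 CPM in AAV-CRE females against 155, 177 and 156 CPM in AAV-GFP females, and at 188, 138 and 174 CPM in AAV-CRE males against 187, 175 and 181 CPM in AAV-GFP males. Its log2 fold changes of 0.17 and -0.12 did not pass.

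Chrm2 differed more among libraries of 1 group than between groups in the Dnmt3a2lox/2lox experiment. It stood at 12.3, 28.4 and 10.7 CPM in AAV-CRE males against 9.31, 12.5 and 8.41 CPM in AAV-GFP males, with 1 AAV-CRE library far above the others. The log2 fold change was 0.78 (95% CI -0.24 to 1.81, adjusted p = 0.322), and 0.19 without that library. In females it stood at 9.08, 17.9 and 9.31 CPM with AAV-CRE against 21.2, 10.7 and 26.2 CPM with AAV-GFP, a log2 fold change of -0.69 (95% CI -1.71 to 0.33). Ngfr, the low-affinity neurotrophin receptor that in the adult forebrain marks cholinergic neurons of the basal forebrain, was high in the libraries high in Chrm2. Ngfr stood at 1.48, 22.0 and 1.88 CPM in AAV-CRE males, 3.94, 1.65 and 1.15 CPM in AAV-GFP males, 2.12, 7.02 and 1.91 CPM in AAV-CRE females, and 13.6, 5.08 and 16.3 CPM in AAV-GFP females. The wild-type library with the most Chrm2, stressed female library 3, also had the most Ngfr, at 9.88 CPM. Other wild-type groups did not follow. Stressed male library 2 had the most Chrm2 of its group (15.4 CPM) and the least Ngfr (4.88 CPM). Control female library 3 had the most Chrm2 of its group (13.8 CPM) and the least Ngfr (3.85 CPM). The whole list of 13 genes of basal forebrain, septal, pallidal and hypothalamic neurons summed to 44.8 to 108 CPM in AAV-CRE males, 49.4 to 60.4 CPM in AAV-GFP males, 38.5 to 85.2 CPM in AAV-CRE females and 59.0 to 99.6 CPM in AAV-GFP females. Between 0 and 3 of its genes were at 0 in a library of this experiment. In the 4 libraries high in Chrm2, Chat was the highest of its group in AAV-CRE male library 2 (21.8 CPM) and AAV-GFP female library 3 (31.3 CPM), the middle value in AAV-CRE female library 2 (22.2 CPM) and the lowest in AAV-GFP female library 1 (24.8 CPM). The part of such neurons in the Chrm2 values was not tested.

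**Figure D4:**
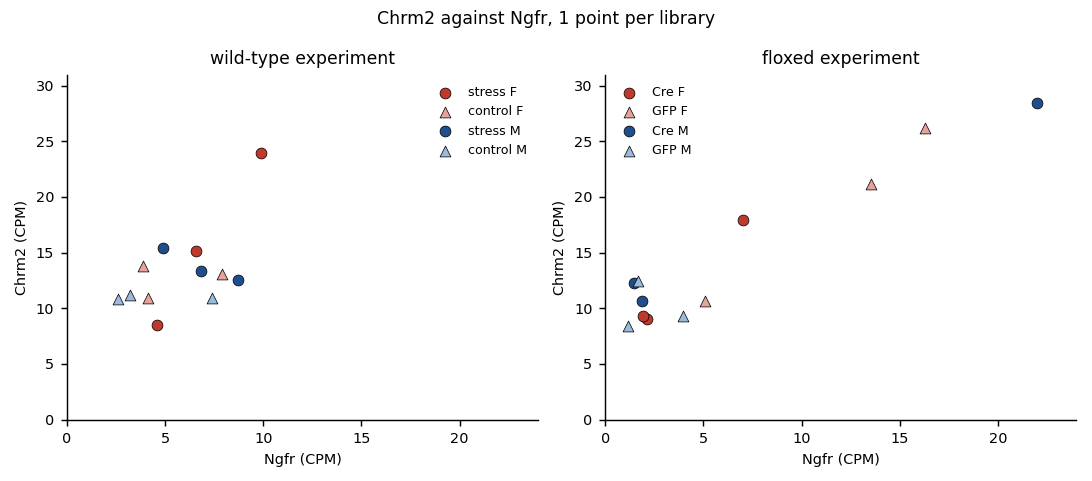
Chrm2 (y axis, CPM) against Ngfr (x axis, CPM), with 1 point per library; circles are stressed or Cre libraries, triangles control or GFP libraries. In the Dnmt3a2lox/2lox experiment the 4 libraries with 17.9 CPM of Chrm2 or more hold 7.02 CPM of Ngfr or more, and the other 8 hold 5.08 CPM of Ngfr or less.

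In the other comparisons of the Dnmt3a2lox/2lox experiment no member was called by edgeR. The count was 0 of 8 for Cre in females, where 0% of genes were called and 5.96% had an unadjusted p below 0.05; no member did, and DESeq2 called none. It was 0 of 8 for Cre averaged over the sexes (1.42% of all genes called), with 2 members, Slc5a7 and Chrna4, under an unadjusted p of 0.05 (14.2% of all genes) and 1, Chrna4, called by DESeq2. For the difference of the Cre effect between the sexes it was 0 of 8 (0.0114% of all genes called), with 2 members, Chrna4 and Chrm2, under an unadjusted p of 0.05 (17.5% of all genes) and Chrna4 called by DESeq2. The shares of all genes are those of edgeR. DESeq2 called more genes than edgeR in every comparison of this experiment, and its counts are given in the last paragraph. Females against males gave 0 of 8 calls (0.0682% of all genes called; 0 by DESeq2), with 3 members under an unadjusted p of 0.05 (6.68% of all genes). Chat averaged 23.2 ± 3.07 CPM in AAV-CRE females and 27.6 ± 3.36 CPM in AAV-GFP females, against 20.1 ± 1.81 CPM in AAV-CRE males and 22.0 ± 3.32 CPM in AAV-GFP males (SD, n = 3 libraries each). Its log2 difference, female minus male, was 0.27 (95% CI 0.07 to 0.47, adjusted p = 0.585), that of Slc5a7 was 0.28 (95% CI 0.06 to 0.51, adjusted p = 0.634), and that of Chrna4 was -0.32 (adjusted p = 0.736). All 6 measured cholinergic markers were higher in females on average in this experiment, with a median of 0.28 beside 0.00 over all genes. Of them, edgeR called 0 and DESeq2 called 2, among them Slc10a4. Spiny neuron markers were also higher: 12 of 12 shared (median 0.14), 5 of 5 direct pathway (0.16) and 5 of 5 indirect pathway (0.20). So were 8 of 9 basal forebrain, septal, pallidal and hypothalamic markers (0.22). Markers of cortical neurons (9 of 10), choroid plexus (9 of 9) and oligodendrocytes (7 of 8) were lower. In the wild-type experiment 2 of the 6 cholinergic markers were positive and their median was -0.03.

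Because Chat and Slc5a7 are markers of the same neurons, their levels were compared library by library within groups. In the wild-type experiment they ran in opposite directions: the deviations of log2 CPM from the group mean had a Pearson r of -0.92 and a Spearman rho of -0.91 over 12 libraries (exact within-group permutation test, two-sided p = 0.00231 for each, adjusted p = 0.00926 over the 4 relations computed). Without the 2 libraries whose Chat value lay farthest from the median, r was -0.90. The ratio of Slc5a7 to Chat counts ran from 1.18 in control female library 1 to 4.07 in stressed male library 2. In the Dnmt3a2lox/2lox experiment the same ratio stayed between 1.60 and 2.17, and the deviations ran in the same direction without passing the test (r = 0.68, p = 0.0509, adjusted p = 0.0679; rho = 0.62, p = 0.0880, adjusted p = 0.117; exact permutation, 12 libraries; r = 0.67 without 2 libraries). Chat and Ache had an r of 0.82 in the wild-type experiment (exact permutation p = 0.0131, adjusted p = 0.0262; rho = 0.78, p = 0.0162, adjusted p = 0.0324; r = 0.71 without 2 libraries) and of 0.56 in the Dnmt3a2lox/2lox experiment (exact permutation p = 0.0949, adjusted p = 0.0949; rho = 0.41, p = 0.218, adjusted p = 0.218; r = 0.71 without 2 libraries). The test shuffled libraries within each group and took the groups as independent. Same-numbered libraries of different groups deviated together in stressed and control females, and in part in males and between the sexes. The 12 wild-type deviations are therefore not fully independent and the wild-type p may be too small. In the Dnmt3a2lox/2lox experiment, AAV-CRE female and male libraries numbered 2 and 3 deviated together, so the p there may be too small as well. The test of a difference between the experiments was not run.

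GC content moved with these relations. The longest annotated transcript of Chat has 54.3% GC, that of Ache 58.7% and that of Slc5a7 40.8%, which is lower than in all but 8.56% of tested genes. Slopes on GC over all genes were taken against the mean of the experiment's 12 libraries. They ran from -0.337 to 0.339 log2 units per 10 percentage points in wild-type libraries and from -0.132 to 0.0616 in Dnmt3a2lox/2lox libraries. There the AAV-CRE libraries had slopes of 0.0232 to 0.0616 and the AAV-GFP libraries -0.132 to 0.0528. The 4 wild-type libraries numbered 1 had slopes of 0.158 to 0.339, and each of them had the lowest Slc5a7 of its group. After the trend on GC was removed from each library, r for Chat and Slc5a7 was -0.84 in the wild-type experiment (exact permutation, adjusted p = 0.0432) and 0.79 in the Dnmt3a2lox/2lox experiment (exact permutation, adjusted p = 0.0432), and r for Chat and Ache in the wild-type experiment was 0.46 (exact permutation, adjusted p = 0.193). The sign for Chat and Slc5a7 in the wild-type experiment was negative with and without the correction. Whether the correction removed the whole effect of base composition was not tested. The p after correction may also be too small, since same-numbered libraries deviated together in part.

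**Figure D5:**
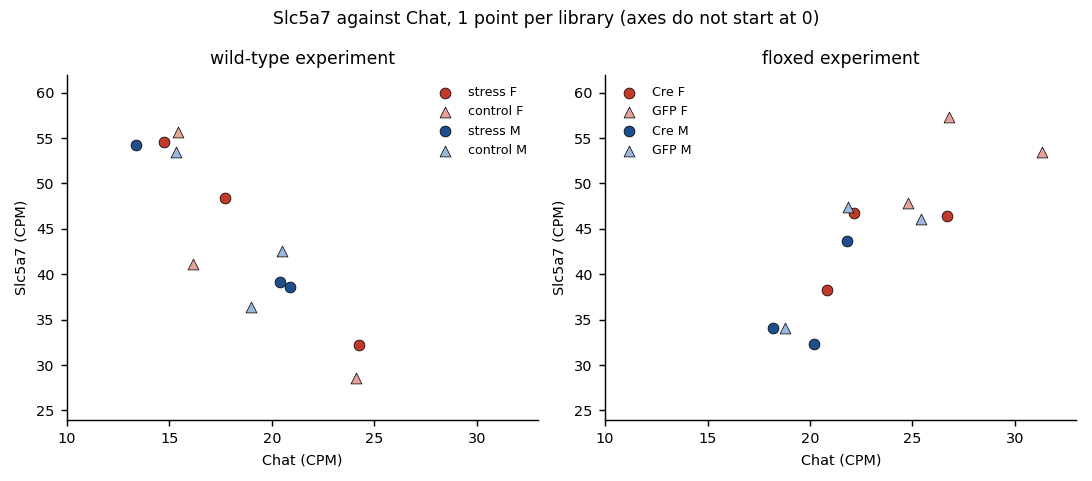
Slc5a7 (y axis, CPM) against Chat (x axis, CPM) with 1 point per library; neither axis starts at 0; circles are stressed or Cre libraries, triangles control or GFP libraries. In the wild-type panel the libraries with more Chat hold less Slc5a7 (r = -0.92 within groups), and in the Dnmt3a2lox/2lox panel those with more Chat hold more Slc5a7 (r = 0.68).

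The genes whose within-group deviations were most like those of Chat were ranked among 13043 genes by the mean of Pearson's r in the 2 experiments (12 libraries each, which share depth and base composition effects). The first 10 were Wbp1, Hip1r, Akr7a5, Btbd17, Zfp219, Gm21974, Samd14, Ube2s, Lrrc4b and Nr1h2, with mean r between 0.847 and 0.884. Of the genes known for cholinergic neurons, Slc10a4, a transporter-like protein of cholinergic synaptic vesicles, ranked 70 (mean r 0.775) and Ache ranked 287. Ngfr, Isl1, Slc5a7 and Slc17a8 ranked lower, at 3027, 6194, 7781 and 8245. High r with Chat also occurred for receptor genes in the wild-type libraries: 0.90 for Chrm4, 0.88 for Chrm1 and 0.80 for Chrnb2, beside 0.43 for Chrna4 and -0.59 for Chrm2. In the Dnmt3a2lox/2lox libraries these were 0.02, -0.14, 0.10, 0.05 and 0.26, in the same order.

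A wider list of 33 acetylcholine genes held further receptor subunits, choline supply, cholinesterase anchors, receptor chaperones and other markers of cholinergic neurons; all 33 had a row. The filter on low counts left 27 of them for the wild-type fit and 31 for the Dnmt3a2lox/2lox fit, so a member of the list could pass through the group in which it was high. After stress, 0 of 27 were called in each sex by edgeR, and 0 of the 33 by DESeq2, which gave each an adjusted p. By edgeR 1 gene in females and 0 in males had an unadjusted p under 0.05 (1.68% and 2.81% of all genes). The 3 of smallest p in females were Rgs4, a regulator of G protein signalling (log2 fold change -0.24, 95% CI -0.48 to -0.01), the muscarinic receptor Chrm5 (0.55, 95% CI -0.08 to 1.18) and the nicotinic subunit Chrna3 (-0.70, 95% CI -1.74 to 0.33). In males they were Gbx2, a transcription factor needed for striatal cholinergic interneurons (log2 fold change 0.62, 95% CI 0.00 to 1.24), and the nicotinic subunits Chrna2 (0.77, 95% CI -0.07 to 1.60) and Chrnb4 (-0.89, 95% CI -2.03 to 0.24). Each of the 6 had an adjusted p of 1.00.

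With AAV-CRE in males, edgeR called 4 of the 31, 2 higher and 2 lower (3.68% and 1.28% of all genes by edgeR). Over all genes DESeq2 called more than edgeR in this comparison, with the counts in the last paragraph. DESeq2 also called 4, of the 29 to which it gave an adjusted p; Isl1 and Chka were called by both, and DESeq2 alone called the muscarinic receptor Chrm3 (edgeR log2 fold change 1.21, adjusted p = 0.123) and Lynx1, which binds nicotinic receptors and dampens them (0.58, adjusted p = 0.0624); these 2 are named after their values were seen. Isl1, a transcription factor of cholinergic interneurons and of direct pathway spiny neurons, stood at 21.0, 21.7 and 23.9 CPM in AAV-CRE males against 38.7, 34.8 and 31.3 CPM in AAV-GFP males. All AAV-CRE libraries lay below all AAV-GFP ones, and Isl1 fell by 0.65 on the log2 scale (SE 0.11, adjusted p = 0.0115). In females it stood at 30.9, 39.2 and 29.9 CPM with AAV-CRE against 31.4, 34.8 and 36.7 CPM with AAV-GFP, and the difference between the sexes had an adjusted p of 0.111 by edgeR and was called by DESeq2. Direct pathway markers were lower with it, with 5 of 5 negative in AAV-CRE males and a median log2 fold change of -0.44, a list that includes Isl1 and Chrm4. The other spiny neuron markers were lower as well, with 12 of 12 shared markers negative (median -0.32) and 4 of 5 indirect pathway markers negative (median -0.27), beside 0.00 over all genes. The Isl1 call was lost without AAV-GFP male library 2 (adjusted p = 0.0556) and its log2 fold change was -0.02 with the cortical markers as a covariate. Chka, choline kinase, which turns choline towards membrane lipid, stood at 99.9, 97.9 and 97.9 CPM in AAV-CRE males against 113, 115 and 112 CPM in AAV-GFP males. It fell by 0.20 on the log2 scale (adjusted p = 0.0395), a call that was lost without any 1 of 10 of the 12 libraries. With the cortical markers as a covariate its log2 fold change was -0.17, and it was not called.

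The 2 higher genes were rare nicotinic subunits. Both passed the filter on low counts through the AAV-CRE male libraries in which they were high, so their calls are a description and support nothing. Chrna5 had 13, 79 and 9 reads in AAV-CRE males against 4, 4 and 1 in AAV-GFP males (log2 fold change 2.80, SE 0.69, adjusted p = 0.0418). Without AAV-CRE male library 2, which holds most of these reads, the log2 fold change was 1.67 and the adjusted p was 0.132, the call was lost in 11 of the 12 fits that left out 1 library, and with the cortical markers as a covariate it was -0.20. Chrnb3 had 17, 59 and 13 reads in AAV-CRE males against 0 in each of the 3 AAV-GFP male libraries. Set against a floor of 3 reads per library it was at least 6.43-fold higher, and 5 of the 12 fits that left out 1 library lost the call. With the cortical markers as a covariate its log2 fold change stayed positive, and it was not called. DESeq2 gave neither gene an adjusted p. Over the 31 tested genes the median log2 fold change was 0.04, beside 0.00 over all genes.

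With AAV-CRE in females, 0 of 31 were called by edgeR, with 3 under an unadjusted p of 0.05 (5.96% of all genes), and DESeq2 called 1, Slc17a8, of the 29 to which it gave an adjusted p. Over all genes DESeq2 called more than edgeR here and averaged over the sexes, with the counts in the last paragraph. Slc17a8, the vesicular glutamate transporter that cholinergic interneurons also carry, stood at 15.4, 17.9 and 19.5 CPM in AAV-CRE females against 25.2, 22.1 and 23.7 CPM in AAV-GFP females (log2 fold change -0.43, unadjusted p = 0.000889, adjusted p = 0.474). In males it stood at 20.0, 18.3 and 16.7 CPM with AAV-CRE against 23.3, 22.7 and 20.4 CPM with AAV-GFP. The AAV-CRE libraries lay below the AAV-GFP libraries in each sex, and averaged over the sexes Slc17a8 was the 1 gene of the list called by edgeR (0.119% of all genes were called lower), while DESeq2 called 2, Isl1 and Slc17a8. Its log2 fold change by edgeR was -0.35 (SE 0.07, adjusted p = 0.0322). That call was lost without any 1 of 8 of the 12 libraries, with adjusted p between 0.0418 and 0.106 over the 12, and with the correction for GC content (adjusted p = 0.0597). The other 2 of smallest p in females were Chrna2 (log2 fold change -1.38, adjusted p = 0.630) and Gbx2 (log2 fold change -0.65, adjusted p = 0.746).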

How the data were processed

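RNA of 24 libraries (8 groups of 3, pools of 4 mice) was sequenced by the study's authors from bulk tissue. The deposited values are raw counts per Ensembl gene; the submitters' processing notes list Bowtie2 2.1.0, TopHat2 2.0.9, HTSeq 0.6.0 and the builds NCBIM37 and mm9, with no settings. Symbols were matched by Ensembl ID through GENCODE M21 (GRCm38) for 32919 of 37991 IDs, and the M21 IDs of Slc18a3 and Lhx8 were not among the table's rows; promoter windows are from RefSeq. The members and all lists were chosen with earlier results of these data known. The named genes are the members, those genes of the wider acetylcholine list that were called or otherwise the 3 of smallest p in each of stress and Cre in each sex, the 10 genes most like Chat, and Dnmt3a; 1 gene of the marker and wider lists enters their counts but is not reported here by name.

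Each experiment was fitted apart in R 4.3.3 with edgeR 4.0.16: the filterByExpr filter (which left 15249 genes in the wild-type fit and 17597 in the Dnmt3a2lox/2lox fit), TMM factors, a robust quasi-likelihood fit with 4 group means, and the F test with Benjamini-Hochberg adjustment over all genes tested, called at an adjusted p below 0.05. CPM use TMM-scaled library sizes and RPKM the M21 exon length. Log2 CPM for the relations between genes had a prior count of 2. The planned 8 relations became 4, since Slc18a3 and Lhx8 had no row. No 2 replicates agreed within sampling noise (lowest chi-square per degree of freedom 7.13). The steps were tested on simulated counts.

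Same-numbered stressed and control females deviated together (r = 0.654, 0.368 and 0.640), so the numbers pair those libraries, as read from the data and not from the labels. In stressed and control males r was 0.456, 0.368 and 0.0937, beside -0.380 to 0.120 for different numbers, so numbers 1 and 2 deviated together. Between the sexes same-numbered r was 0.572, 0.142 and -0.242 with stress and 0.469, 0.274 and 0.0876 in controls. Between AAV-CRE and AAV-GFP libraries same-numbered r was 0.219, -0.245 and -0.484 in females and -0.0883, 0.113 and 0.294 in males. Between the sexes it was -0.0839, -0.145 and -0.281 with AAV-GFP and -0.0740, 0.306 and 0.410 with AAV-CRE. Different numbers gave -0.486 to 0.293 between the sexes with AAV-CRE, so numbers 2 and 3 deviated together there. Alternatives were RLE factors, no filter, DESeq2 1.42.0, the replicate block, only the 2 groups compared and leaving out each library; a GC correction, with and without the block, and a cortical marker covariate were added after seeing the data.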

Additional observations from a re-analysis of the deposited data

How the results depend on the processing

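The count of members called after stress, between the sexes and after Cre in females was 0 in every fit run. For Cre in males it was 1 (Chrna4) in the main fit, with RLE factors, without the filter, with DESeq2, with the replicate block (adjusted p = 0.0488), with only the 2 groups, with the GC correction and without any 1 library (1 to 1); it was 0 with the GC correction and the replicate block together (Chrna4 log2 fold change 1.22, adjusted p = 0.0616) and 0 with the cortical marker covariate, where Chrna4 was at -0.42 and Chrna5 at -0.20. With that covariate Isl1 was at -0.02, Chka at -0.17 (main fit -0.20) and Chrnb3, which had no reads in AAV-GFP males, at 3.42. None of these was called. The cause was not tested. For Cre averaged over the sexes it was 0 in the main fit and 1 (Chrna4) with DESeq2, and 0 to 1 without 1 library, the 1 without AAV-CRE male library 3. For the Cre difference between the sexes it was 0 in the main fit and 1 (Chrna4) with DESeq2, and 0 to 1 without 1 library, the 1 without AAV-CRE male library 3 or AAV-GFP female library 2. The replicate block changed no other member's call; with it Isl1 (adjusted p = 0.0508), Chrna5 (0.0528), Chka (0.105) and Chrnb3 (0.114) in males and Slc17a8 averaged over the sexes (0.0899) were no longer called. Chka was also not called without 10 of the 12 libraries in turn. The relation of Chat and Ache in the wild-type experiment had r = 0.46 and that of Chat and Slc5a7 in the Dnmt3a2lox/2lox experiment r = 0.79 with the GC correction, now below and past the threshold.

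Counts over all genes moved more. For Cre in males 872 genes were called, against 1754 with DESeq2, 551 with only the 2 groups, 191 with the replicate block, 80 with the block and GC correction, 0 with the cortical covariate and 93 to 1303 without 1 library. For Cre averaged over the sexes the count was 249, against 651 with DESeq2, 82 with the GC correction, 34 with the block, 9 with both, 0 with the covariate and 17 to 401 without 1 library. For the Cre difference between the sexes it was 2, against 43 without the filter, 613 with DESeq2, 0 with the block and 0 to 500 without 1 library. For Cre in females it was 0, and 33 with DESeq2. For stress it was 0 in females (up to 5), 1 in males (up to 4) and 2 on average (up to 18). For females against males it was 6 (up to 14) in wild type and 12 in Dnmt3a2lox/2lox mice (6 with the covariate, 87 with DESeq2, 9 to 92 without 1 library). In the wild-type experiment Chrm2 had as few as 63 counts in a library. Its standard error for stress in females was 0.27, beside 0.27 for Chrm4 and 0.25 for Chrm1. Standard errors were not alike between the experiments, which differ in depth, genotype and virus. For Cre in females they were lower for Chrm4 (0.18) and Chrm1 (0.12), and higher for Chrm2 (0.46).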
